A study of Homo sapiens with 6 samples.

Results

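A core set of 10 genes of transforming growth factor beta (TGF-beta) signalling were followed in ACHN cells after knockdown of OTUD1. The set holds the ligands TGFB1 and TGFB2, the receptors TGFBR1 and TGFBR2, the signal transducers SMAD3 and SMAD4, the pathway inhibitors SMAD7, SKIL and PMEPA1, and the matrix gene TGFBI. They were taken from the deposited table by gene symbol, and all 10 were found among its 58735 rows and passed the filter on low counts together with 15244 genes in all. ACHN is an established human renal cancer cell line, and 3 libraries came from cells transfected with a control siRNA and 3 from cells transfected with an siRNA against OTUD1. No time after transfection is given, the labels name 1 siRNA (si01), and they do not say whether the libraries of a group were separate cultures, so every p-value below rests on the variation among libraries that may be technical repeats. The series title concerns OTUD1 acting on STAT3 and PD-L1. OTUD1, a deubiquitinase, is also known to remove ubiquitin from the SMAD7 protein, and protein was not measured here.

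TGF-beta ligands are secreted in a latent form and, once released, bind the type II receptor TGFBR2, which activates the type I receptor TGFBR1. The active type I receptor phosphorylates SMAD2 and SMAD3, which join SMAD4 and act on target genes in the nucleus. Several targets, among them SMAD7, SKIL and PMEPA1, encode proteins that restrain the same pathway, and in epithelial cells TGF-beta is known both for slowing growth and for driving matrix production.

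The receptors rose, while the transducers SMAD3 and SMAD4 and the 3 inhibitors fell. TGFB1, TGFBR1 and TGFBR2 rose 1.16-, 1.38- and 1.11-fold after OTUD1 siRNA, SMAD3 and SMAD4 fell 1.16- and 1.25-fold, and the inhibitors SMAD7, SKIL and PMEPA1 fell 1.54-, 1.71- and 1.17-fold. TGFBI rose 1.27-fold, and TGFB2 did not pass the test. By edgeR's quasi-likelihood test with an adjusted p under 0.05, 4 of the 10 rose, where 29.3% of all tested genes rose, and 5 fell, where 31.1% of all tested genes fell. Thus 9 of 10 were called against 60.4% of all genes. In the same 9 the values of both groups did not overlap, against 64.5% of all genes. These shares include scarce genes. With a minimum mean of 5 CPM (defined below), which all 10 pass, 3887 of 11033 tested genes rose and 3886 fell. The sizes of the changes were not unusual: the median absolute log2 fold change was 0.27 for the 10 genes and 0.32 for all genes tested, and the signed medians were -0.20 and 0.01. With scaling by library totals the split over all genes moved from 4460 higher and 4746 lower to 6189 higher and 3456 lower, since that scaling shifts the median of all genes from 0.01 to 0.13 on the log2 scale.

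Levels below are CPM, counts per 1000000 counts of the TMM-scaled library (TMM sets the scale from the bulk of genes), as mean ± SD of n = 3. A positive log2 fold change means more mRNA after OTUD1 siRNA, SE is its standard error, and each p is adjusted over all tested genes. As these are bulk libraries, a change in the mix of cells and a change in the RNA per cell cannot be told apart.

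OTUD1 itself, the targeted gene, was read first. It had 61, 67 and 65 counts in the control libraries and 28, 17 and 25 in the OTUD1 siRNA libraries, or 3.77 ± 0.0684 and 1.17 ± 0.288 CPM. All 3 knockdown libraries were lower, with a log2 fold change of -1.69 (SE 0.24, adjusted p = 4.37e-07 by edgeR). Library totals were 16753495 to 18993534 counts in the control group and 17243433 to 21013530 in the knockdown group, and 3 counts correspond to 0.137 to 0.188 CPM. Markers of renal epithelium were present, with PAX8 at 642 and KRT8 at 4112 CPM in controls, though CDH1 and CDH16 were at 1.79 and 0.586 CPM. Of 11 such markers 3 rose (KRT19, EPCAM and GGT1) and 6 fell, against 29.3% and 31.1% of all genes. Their summed level was 6837 to 7105 CPM in controls and 3726 to 3846 CPM after OTUD1 siRNA, a fall mostly in KRT8, to 1957 CPM, and KRT18, from 1604 to 726 CPM. Of 16 fibroblast, endothelial and leukocyte markers, 3 had enough counts to test, KDR, PTPRC, CD3E and LYZ were at 0 in all libraries, and the summed level of the list was 15.2 to 17.6 CPM in controls and 31.0 to 35.7 CPM after OTUD1 siRNA. ACTA2, at 9.60 and 23.7 CPM, and PDGFRB, at 4.56 and 7.96 CPM, made up most of it, and the part of these marker shifts in the results below was not tested.

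A stretch before a RefSeq start of each gene was searched for sites that the SMAD proteins bind. SMAD3 and SMAD4 bind the short SMAD box, CAGAC, or GTCTG on the other strand. The window was the 250 bases before the RefSeq start (GRCh38.p14) nearest to each gene's principal transcript, and it was found for all 10 genes. In it the box occurred in TGFB2, TGFBR1, SMAD7 and SKIL, that is in 4 of 10. It occurred in 38% of 35116 windows of all genes, where a gene with several starts has several windows. At their other starts SMAD3 and PMEPA1 also had boxes, 4 and 2 summed over windows. The palindrome GTCTAGAC occurred in none of these 10 windows and in 0.182% of all windows. A GC-rich SMAD element, GGCGC or GCGCC, was absent from the windows of TGFBR2 and SMAD7 and present in those of the other members. It occurred in 44.5% of all windows, and base composition was not allowed for. These RefSeq starts are not always the principal start of the other annotation used here. The windows ended 6 bases from the principal start for TGFBR1 but 899, 1087 and 1908 bases from it for TGFB2, SMAD7 and SKIL. The SMAD7 window lies inside the gene, after its principal start, so the bases directly before that start were not searched. Of the 4 with a box in the nearest window, 2 fell, 1 rose and 1 was not called. The boxes are shown in capitals, 5′ to 3′ on the gene's strand, because SMAD7 and SKIL had the largest decreases and TGFBR1 the largest increase; a match is only a match of letters.
SMAD7, chr18:48951168-48951192, minus strand: cggacgccccCAGACctctgaggtt
SMAD7, chr18:48951079-48951103, minus strand: cttattttgcCAGACgtctcatgcg
SKIL, chr3:170357598-170357622, plus strand: cggcggcggcGTCTGcgggaagctg
TGFBR1, chr9:99104833-99104857, plus strand: ctggggctggCAGACcccgccccca
TGFBR1, chr9:99104890-99104914, plus strand: cggggctgggGTCTGgcggcccagc

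**Figure D1:**
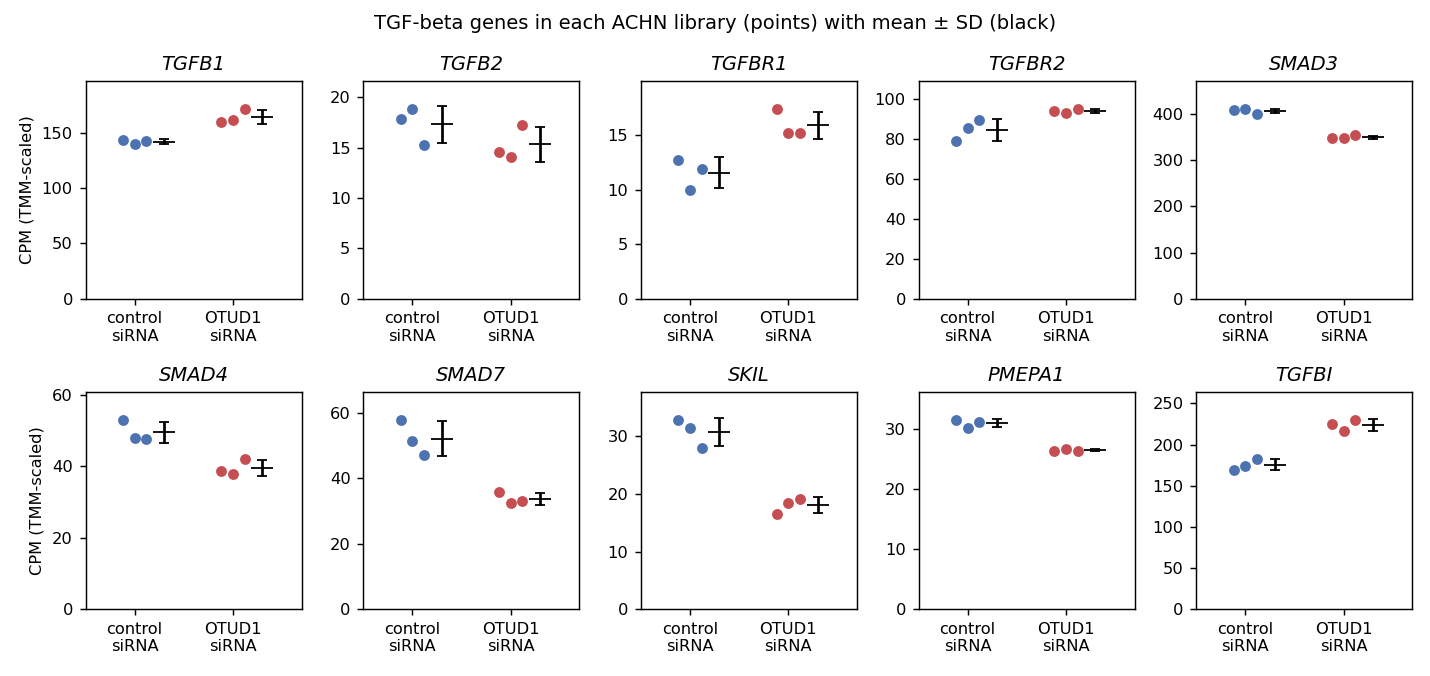
TMM-scaled CPM of the 10 TGF-beta genes in each library (points, 3 control siRNA in blue and 3 OTUD1 siRNA in red) with mean ± SD in black; each panel has its own axis from 0. The groups separate in 9 panels and overlap for TGFB2, whose control libraries span 15.2 to 18.8 CPM and whose knockdown libraries span 14.1 to 17.3 CPM.

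TGFB1 (ENSG00000105329.9; hg38 chromosome 19, 41301587 to 41353911, minus strand) encodes the most widely expressed of the ligands. It was at 144, 139 and 142 CPM in the control libraries and at 160, 162 and 171 CPM after OTUD1 siRNA. All knockdown libraries lay above all controls, and the means of 142 ± 2.18 and 164 ± 6.08 CPM gave a log2 fold change of 0.21 (SE 0.038, adjusted p = 2.15e-05 by edgeR). TGFB1 shares 215 exon bases, 6.64% of its exon length, with HNRNPUL1 on the opposite strand, whose own log2 fold change was -0.83 (adjusted p = 5.62e-18 by edgeR). HNRNPUL1 had 4527 counts in control replicate 1 where TGFB1 had 2298, and as no source gives the strand setting of the counting, reads from the shared bases cannot be assigned with certainty.

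TGFB2 (ENSG00000092969.11; chromosome 1, 218346235 to 218444619, plus strand) encodes a second ligand. It was at 17.8, 18.8 and 15.2 CPM in controls and 14.6, 14.1 and 17.3 CPM after OTUD1 siRNA, so the lowest control lay below the highest knockdown library. The log2 fold change was -0.18 (SE 0.098, 95% interval -0.38 to 0.02, adjusted p = 0.114 by edgeR). It passed the test without control replicate 3 (-0.26, adjusted p = 0.0346) or without OTUD1 siRNA replicate 3 (-0.27, adjusted p = 0.0286). TGFB3, the third ligand, was far scarcer, with 7, 16 and 6 counts in controls and 56, 36 and 34 after OTUD1 siRNA, and rose (log2 fold change 1.88, SE 0.35, adjusted p = 3.18e-05 by edgeR). Per kilobase of exon, TGFB1 made up 91.8% to 93.5% of the ligand mRNA in control libraries and 93.4% to 94.2% in knockdown libraries, and these ranges overlapped.

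TGFBR1 (ENSG00000106799.12; chromosome 9, 99104038 to 99154192, plus strand) encodes the type I receptor kinase, and it had the largest increase of the 10. Its values were 12.8, 9.97 and 11.9 CPM in controls and 17.4, 15.2 and 15.2 CPM after OTUD1 siRNA, from 181 to 204 and 273 to 381 counts. The groups did not overlap (log2 fold change 0.47, SE 0.10, adjusted p = 0.000269 by edgeR). TGFBR2 (ENSG00000163513.17; chromosome 3, 30606502 to 30694142, plus strand), the type II receptor, was at 78.9, 85.5 and 89.6 CPM in controls and 94.2, 93.2 and 94.8 CPM after OTUD1 siRNA. The knockdown libraries were tightly grouped above the more spread controls, at a log2 fold change of 0.15 (SE 0.046, adjusted p = 0.00606 by edgeR). Without control replicate 1, the lowest, this call was lost (0.10, adjusted p = 0.0533). TGFBR2 made up 89.99% to 92.6% of the summed TGFBR1 and TGFBR2 level per kilobase in controls and 88.8% to 90.1% after OTUD1 siRNA. TGFBR3, the co-receptor betaglycan that presents ligand, fell 1.52-fold from 14.1 ± 1.07 to 9.32 ± 1.05 CPM (adjusted p = 2.05e-05 by edgeR).

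SMAD3 (ENSG00000166949.15; chromosome 15, 67063763 to 67195195, plus strand) encodes a receptor-activated SMAD that binds DNA. It was at 409, 410.5 and 401 CPM in controls and 348, 349 and 354 CPM after OTUD1 siRNA, with no overlap and SDs of 5.04 and 3.24 CPM. The log2 fold change was -0.22 (SE 0.030, adjusted p = 3.72e-07 by edgeR). This call did not hold after quantile normalization with limma, where the log2 fold change was -0.01 (adjusted p = 0.841). SMAD2, the other receptor-activated SMAD of this branch, fell 1.13-fold from 59.3 ± 2.42 to 52.2 ± 3.33 CPM (adjusted p = 0.00555 by edgeR). It lost its call with library totals (log2 fold change -0.05), after quantile normalization (-0.10) and without OTUD1 siRNA replicate 3 (-0.13).

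SMAD4 (ENSG00000141646.13; chromosome 18, 51028394 to 51085045, plus strand), the partner SMAD shared with the BMP branch, was at 52.9, 48.0 and 47.5 CPM in controls and 38.7, 37.8 and 42.1 CPM after OTUD1 siRNA. Every knockdown library was below every control, with a log2 fold change of -0.32 (SE 0.060, adjusted p = 3.62e-05 by edgeR).

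SMAD7 (ENSG00000101665.9; chromosome 18, 48919853 to 48952052, minus strand) is the inhibitory SMAD, which brings ubiquitin ligases to the receptor and is itself induced by TGF-beta. Its mRNA was at 57.7, 51.5 and 47.1 CPM in controls and 35.8, 32.5 and 32.9 CPM after OTUD1 siRNA. The lowest control was still well above the highest knockdown library. From 52.1 ± 5.34 to 33.7 ± 1.78 CPM, the log2 fold change was -0.62 (SE 0.067, 95% interval -0.76 to -0.49, adjusted p = 3.47e-09 by edgeR), and 76.5% of tested genes had a smaller absolute change. Across the 6 libraries, the 3 protein-coding genes whose log2 CPM followed SMAD7 most closely were RAB20, RBM3 and ABHD11, with Pearson correlations of 0.9990, 0.9976 and 0.9970. The points of each correlation are the same 6 libraries in 2 groups, and 27 genes exceeded 0.99.

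SKIL (ENSG00000136603.13; chromosome 3, 170357678 to 170396835, plus strand) encodes SnoN, a corepressor that binds SMAD complexes, and it had the largest change of the 10. It was at 32.8, 31.4 and 28.0 CPM in controls and 16.5, 18.5 and 19.2 CPM after OTUD1 siRNA, groups that lay far apart. The log2 fold change was -0.77 (SE 0.080, 95% interval -0.93 to -0.61, adjusted p = 1.81e-09 by edgeR), larger in size than that of 83.7% of tested genes. Its relative SKI, also a SMAD corepressor, rose from 30.2 ± 2.45 to 42.0 ± 2.54 CPM (log2 fold change 0.47, SE 0.067, adjusted p = 5.34e-07 by edgeR). Per kilobase of annotated exon, SKI was at 4.96 ± 0.404 CPM in controls and 6.91 ± 0.418 after OTUD1 siRNA, and SKIL at 3.95 ± 0.319 and 2.32 ± 0.178. On this scale every SKI value was above every SKIL value in both groups.

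PMEPA1 (ENSG00000124225.15; chromosome 20, 57648392 to 57711536, minus strand) encodes a membrane protein that holds receptor-activated SMADs away from the receptor. It was at 31.5, 30.2 and 31.2 CPM in controls and 26.3, 26.7 and 26.4 CPM after OTUD1 siRNA. The replicates were tight and the groups did not overlap (log2 fold change -0.23, SE 0.066, adjusted p = 0.00396 by edgeR). With library totals it was -0.10 and not called (adjusted p = 0.202), while relative to the median of all genes under that scaling it was -0.23. The antisense gene NKILA covers 343 bases, 6.1%, of the PMEPA1 exons and rose (log2 fold change 0.81, adjusted p = 0.00764 by edgeR); the same doubt about the shared bases holds here.

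TGFBI (ENSG00000120708.16; chromosome 5, 136028895 to 136063818, plus strand) encodes a secreted matrix protein named for its induction by TGF-beta. It was at 169, 174 and 183 CPM in controls and 225, 216 and 230 CPM after OTUD1 siRNA. All 3 knockdown libraries were higher (log2 fold change 0.35, SE 0.037, adjusted p = 2.47e-09 by edgeR), so this target moved in the direction opposite to the targets SMAD7, SKIL and PMEPA1.

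Across 14 alternative choices of filter, scaling, tool and libraries, none of the 10 genes changed direction. The log2 fold change of SKIL stayed between -0.83 and -0.64 and that of SMAD7 between -0.69 and -0.49. Among the increases TGFBR1 ranged from 0.37 to 0.60, TGFBI from 0.32 to 0.49, TGFB1 from 0.18 to 0.34 and TGFBR2 from 0.10 to 0.28. SMAD4 ranged from -0.37 to -0.19. On the same strand, TGFB2-OT1 lies over 26.6% of the TGFB2 exons and AC091551.1 over 7.37% of the SMAD4 exons, and both had 0 counts in every library.

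**Figure D2:**
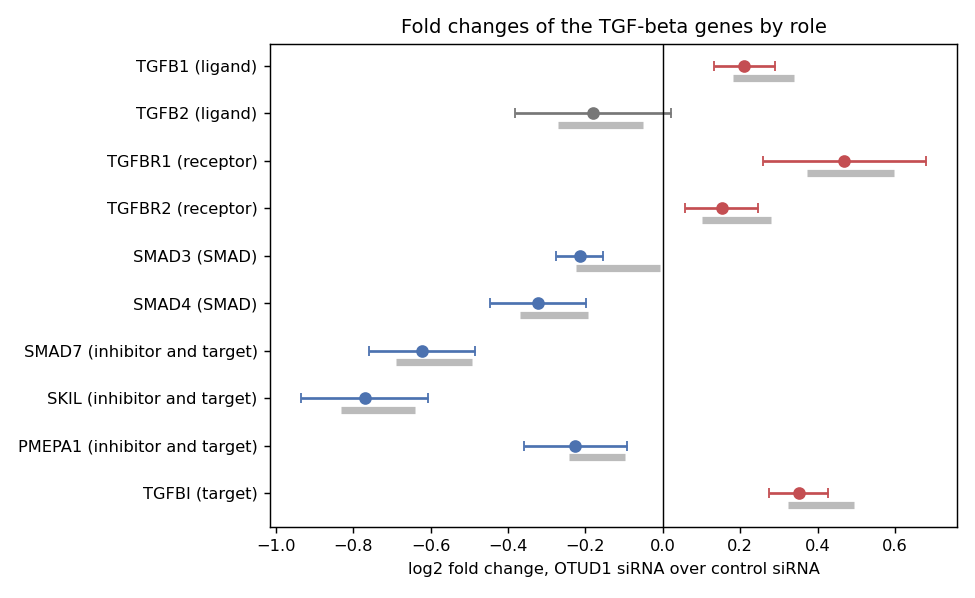
Log2 fold change of each gene, by role, with its 95% interval (points and bars; red called higher, blue called lower, grey not called), and below each point, as a grey strip, the range over the alternative settings. SKIL and SMAD7 lie farthest below 0 at -0.77 and -0.62, TGFBR1 farthest above at 0.47, and the strip of SMAD3 reaches -0.01.

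The levels of the 10 genes were compared with each other as CPM per kilobase of annotated exon. In control libraries SMAD3, at 44.7 ± 0.553, and TGFB1, at 43.8 ± 0.674, led and overlapped, followed by TGFBI at 22.5, TGFBR2 at 18.0, SMAD7 at 10.3 and PMEPA1 at 5.51. SKIL at 3.95, SMAD4 at 3.77 and TGFB2 at 3.36 formed a run in which each overlapped the next, and TGFBR1 was lowest at 1.69 ± 0.210. After OTUD1 siRNA the order changed at both ends: TGFB1, at 50.7 ± 1.88, was above SMAD3, at 38.5 ± 0.356, and SKIL, at 2.32 ± 0.178, came to the level of TGFBR1, at 2.32 ± 0.185. With the length of the principal transcript in place of all exons, TGFBI stood second in controls, at 62.6 after SMAD3 at 65.1. The order among the leading 3 thus depends on the length used. So does the lower part: by that length SMAD4, at 5.64, stood above SKIL, at 4.28, and TGFB2, at 3.48, without overlap among them.

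**Figure D3:**
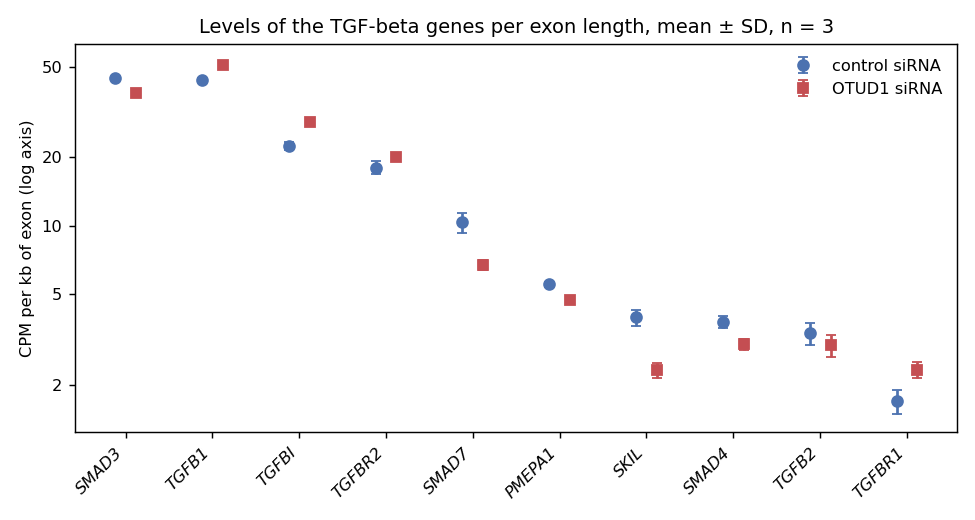
CPM per kilobase of annotated exon (log axis) for the 10 genes, mean ± SD of 3 libraries, control siRNA in blue and OTUD1 siRNA in red, ordered by the control level. The genes span 1.69 to 44.7 in controls, and SKIL falls to the level of TGFBR1 after OTUD1 siRNA.

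An earlier look at these same libraries singled out the 7-mers CAAACAA and AAACAAA in 3′ UTRs, so their presence here is a description and not independent evidence. CAAACAA occurs 2 times in the OTUD1 mRNA. Of 12435 tested genes with a 3′ UTR, 28.8% rose and 35.6% fell. The 1746 carrying CAAACAA (14%) had a median change of -0.24 (log2), and 17.2% of them rose and 54% fell. The 2401 carrying only AAACAAA had a median of -0.13, and 20.8% rose and 45.1% fell. The 8288 with neither had a median of 0.03, and 33.6% rose and 29% fell. Median 3′ UTR length was 2976 bases with CAAACAA, 2369 with only AAACAAA and 702 with neither, and was not allowed for. Among the 10 genes, SMAD4 and TGFB2 carry CAAACAA. SMAD4 also carries a separate AAACAAA, while the AAACAAA of TGFB2 overlaps its CAAACAA in the same site. SKIL carries AAACAAA 4 times and PMEPA1 1 time, and SMAD3, SMAD7, TGFB1, TGFBR1, TGFBR2 and TGFBI carry neither. The genes that rose all lack both, as do 66.7% of tested genes with a 3′ UTR, and those that fell include SMAD3 and SMAD7, which also lack both. Among the genes that rose, TGFB1 and TGFBI have 3′ UTRs of 729 and 591 bases, and TGFBR1 and TGFBR2 of 4887 and 2535 bases. The part of these sites in the changes was not tested. The CAAACAA sites of SMAD4 and TGFB2 and the first SKIL site are printed with the 7-mer in capitals.
SMAD4, chr18:51083200-51083228, plus strand: gaggacaccagCAAACAAcacacaacaaa
TGFB2, chr1:218444485-218444513, plus strand: ccactgcaccaCAAACAAaaaaacccacc
SKIL, chr3:170394098-170394126, plus strand: atgacatgtagAAACAAAttttttttttt

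The other genes of the pathway were grouped in 4 lists by role. These overlap, as LTBP2 and ITGB6 are counted both among ligands and their release and among direct target genes. Of 11 tested genes of ligands and their release, 2 rose and 8 fell, with a median log2 fold change of -0.52 against 0.01 for all tested genes. In all, 90.9% of this list was called, against 60.4% of all genes (29.3% higher and 31.1% lower). THBS1, thrombospondin, which can activate latent TGF-beta, fell 2.96-fold from 658 ± 10.4 to 222 ± 3.77 CPM (adjusted p = 8.03e-26 by edgeR). INHBA, the activin A subunit, fell 2.26-fold from 205 ± 8.96 to 90.4 ± 3.31 CPM, and ITGAV, the alpha chain of integrins that release TGF-beta, 1.59-fold from 395 ± 15.9 to 249 ± 2.93 CPM. FURIN, the protease that cleaves the TGF-beta precursor, rose 1.49-fold from 60.8 ± 3.36 to 90.7 ± 3.94 CPM. FURIN and TGFB3 were the increases of this list.

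Of 12 tested receptors and receptor partners, 1 rose and 8 fell (median -0.33), so that 75% were called against 60.4% of all genes (29.3% higher and 31.1% lower). FKBP1A, which binds the resting type I receptor, fell 1.29-fold from 647 ± 5.80 to 502 ± 9.83 CPM (adjusted p = 4.51e-12 by edgeR). The adaptor DAB2 fell 1.41-fold from 55.0 ± 2.69 to 39.2 ± 1.34 CPM, and TGFBRAP1, a receptor-associated protein, fell 1.29-fold from 116 ± 3.38 to 89.8 ± 2.73 CPM. ZFYVE9, the SMAD anchor for receptor activation known as SARA, rose 1.31-fold from 18.9 ± 0.836 to 24.8 ± 1.59 CPM.

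Of 23 tested SMADs and SMAD regulators, 2 rose and 14 fell (median -0.17), and the 69.6% called lay near the 60.4% of all genes (29.3% higher and 31.1% lower). The corepressor TGIF1 fell 1.73-fold from 177 ± 5.38 to 102 ± 1.5 CPM (adjusted p = 1.08e-16 by edgeR). The ubiquitin ligases SMURF1, which works with SMAD7 at the receptor, and NEDD4L, which targets activated SMADs, fell 1.58-fold and 1.32-fold, to 70.6 ± 1.51 and 323 ± 2.48 CPM. SKI and TGIF2 rose, TGIF2 by 1.17-fold from 15 ± 0.321 to 17.6 ± 1.72 CPM (adjusted p = 0.0333 by edgeR). TGIF2 lost its call without a filter (log2 fold change 0.22), with DESeq2 (0.23), and without control replicate 1 (0.21) or 3 (0.23) or OTUD1 siRNA replicate 1 (0.15) or 3 (0.23). This list depended on the scaling more than the others: 5 rose and 7 fell with library totals, and 7 rose and 9 fell after quantile normalization.

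Of 30 tested direct target genes, 10 rose and 16 fell (median -0.29). The 86.7% called compare with 60.4% of all genes, of which 29.3% rose and 31.1% fell. The chromatin protein HMGA2 fell 5.65-fold, from 452, 473 and 462 CPM to 85.4, 79.2 and 80.7 CPM. ANGPTL4, a secreted inhibitor of lipoprotein lipase, fell 2.81-fold from 217 ± 8.40 to 77.1 ± 2.79 CPM, and CTGF, a matricellular protein also driven by YAP, fell 2.13-fold from 208 ± 6.53 to 98.0 ± 0.798 CPM (adjusted p = 4.51e-20 by edgeR). Among the increases, ID3, COL4A1 and ID2 had the smallest adjusted p. The ID genes encode inhibitors of helix-loop-helix factors that BMP signals induce and TGF-beta often represses in epithelial cells. ID3 rose 2.10-fold from 41.4 ± 3.22 to 87.2 ± 5.15 CPM and ID2 2.16-fold from 10.3 ± 1.26 to 22.3 ± 1.55 CPM. COL4A1, a basement membrane collagen, rose 1.47-fold from 331 ± 8.89 to 487 ± 3.69 CPM. The list thus held genes that changed in both directions, as did the 10 genes themselves. As it mixes genes that TGF-beta induces with genes it often represses, these counts do not give a direction of pathway output.

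**Figure D4:**
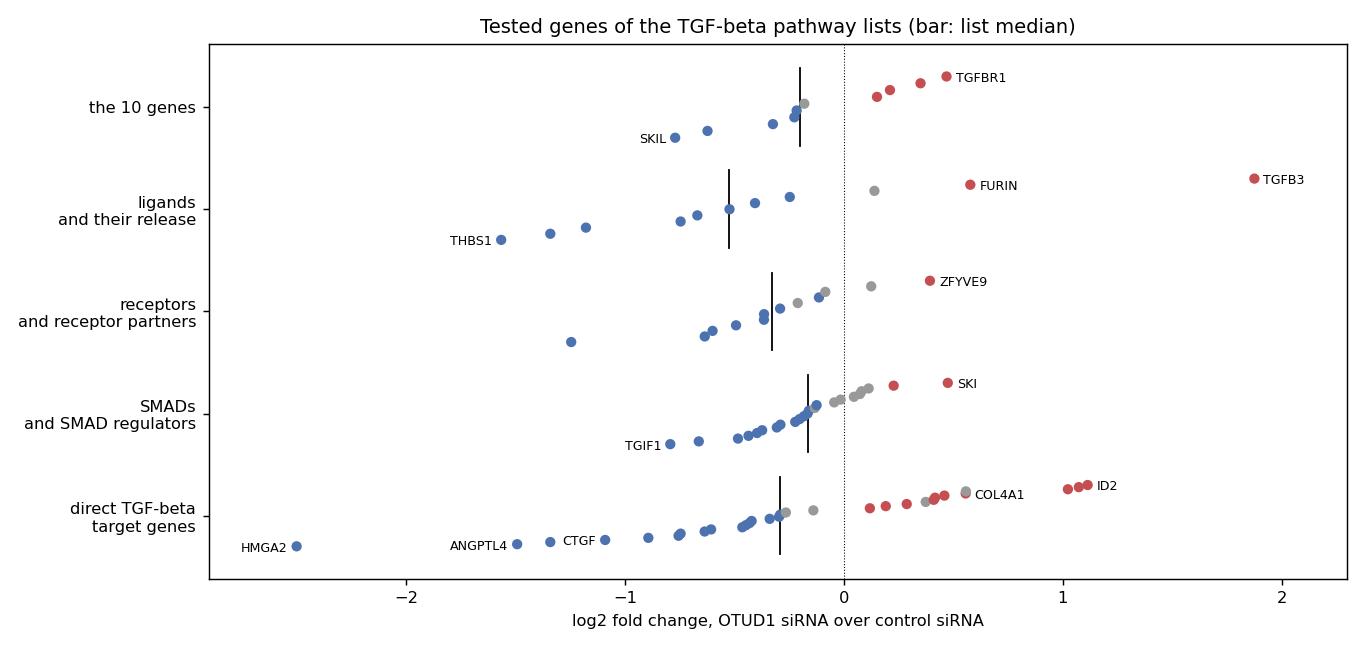
Log2 fold changes of the tested genes in the 10-gene set and the 4 lists of other pathway genes (red called higher, blue called lower, grey not called; black bar, list median). The medians run from -0.52 for ligands and their release to -0.17 for SMADs and SMAD regulators, and each list has called genes on both sides of 0.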

How the data were processed

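The deposited table gives 1 value per row and library, with rows named by gene symbol; 1568 rows repeat the symbol of an earlier row, 0 of the listed genes had more than 1 row, and rows were tested separately. Although named for FPKM, the deposited values are whole numbers with differing library totals and were treated as raw counts; the build is hg38 per the submitters' processing notes, while no source used here gives the aligner, counter, strand setting or annotation. Per the labels' protocols the library kit was directional. The tests used edgeR 4.0.16 under R 4.3.3 (filterByExpr, TMM, glmQLFit, glmQLFTest, two-sided, Benjamini-Hochberg over all 15244 genes tested, threshold 0.05); SE was derived from the fold change and F. The steps were tested on simulated data. Positions and exon lengths are from GENCODE 29, and sequences near starts from RefSeq.

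Alternatives changed the filter, the scaling, the tool (DESeq2 1.42.0, limma 3.58.1) and the replicate number as a block, and left out each library in turn. The named genes are the 10, OTUD1, up to 3 called genes in each direction per list with the smallest adjusted p, and relatives of members by role. The result of 1 listed gene is not reported here. Members and lists were chosen with earlier results of these data known. Of the listed genes, 1 was not matched to the table. Libraries of a group differed by more than counting noise (mean chi-square per gene 2.05 to 3.72).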

Additional observations from a re-analysis of the deposited data

How the results depend on the processing

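Of 140 alternative values for the 10 genes, 135 kept their direction and side of the threshold, 3 lost the call (TGFBR2, SMAD3 and PMEPA1, given above), 2 gained it (TGFB2) and 0 reversed. The number of the 10 called higher or lower stayed within 1.5 times under every setting. List counts that moved were receptors and partners higher (2 with the 5 CPM minimum, RLE scaling, library totals, quantile normalization and the replicate block, and 1 to 2 with a library left out), ligands higher (1 with the 5 CPM minimum, which removes TGFB3) and SMADs and regulators higher (1 without a filter and with DESeq2, 5 with library totals, 7 after quantile normalization, and 1 to 2 with a library left out) or lower (7 and 9 with those scalings); the causes of the other moves were not tested. Same-numbered libraries did not deviate together (correlations -0.02 to 0.03), but with 3 libraries per group this cannot establish whether the numbers pair them. The replicate block left SMAD7 at -0.63, SKIL at -0.77 and the calls of all 10 genes as they were. OTUD1 and TGFB3 are below the 5 CPM minimum and have no value there. Genes with few counts, such as TGFB3 and OTUD1, have the widest errors.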
